A study of Mus musculus with 2 samples.

Results

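The 10 genes described here, *Cxcr5*, *Bcl6*, *Il21*, *Sostdc1*, *Tox*, *Tox2*, *Slamf6*, *Sh2d1a*, *Izumo1r* and *Tbc1d4*, are associated with T follicular helper (Tfh) cells and were taken as a named list from the 28009 genes listed in the count matrices of the study. This list and the lists of other genes below were chosen with earlier results of these data known. Counts set beside the share over all genes are therefore descriptions. All 10 genes had UMIs in both tissues. The cells were IL-10eGFP+ CD4+ T cells, Foxp3+ cells included, sorted from the spleen or the small intestine of IL-10eGFP Foxp3mRFP double reporter mice aged 8 to 16 weeks. By the study's methods, Peyer's patches had been taken out before the small intestinal lymphocytes were isolated. Every mouse had been given 15 µg of anti-CD3 (clone 2C11) intraperitoneally on days 0 and 2 and was killed 4 h after the second injection, and no untreated sample is among those analysed here. Each tissue was measured as 1 droplet library, and the number of mice in a library is not given in the sources used here. With 1 library per tissue there is no spread between replicates, and no test and no p-value is given. Levels are UMIs (unique molecular identifiers, 1 for each captured RNA molecule) summed over cells, per 1000000 UMIs of all genes (CPM), with exact Poisson 95% intervals. Ratios have exact binomial 95% intervals, and all intervals cover counting error only.

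Tfh cells are CD4+ T cells that enter the B-cell follicle and help B cells in the germinal centre. CXCR5, the receptor for the follicular chemokine CXCL13, brings them there, the repressor BCL6 is required for their formation, and IL-21 is the cytokine through which they act on B cells. SLAM family receptors such as SLAMF6 signal through the adaptor SAP, the product of *Sh2d1a*, when T and B cells are in contact. Some Foxp3+ regulatory T (Treg) cells also carry CXCR5 and are then called follicular regulatory cells. IL-10 is made by several kinds of CD4+ T cells, Tfh cells among them.

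After the filters on quality and cell cycle, 1468 splenic cells (median 5398 UMIs) and 1277 small intestinal cells (median 3696 UMIs) were kept, and 3 UMIs corresponded to 0.328 and 0.596 CPM in the 2 libraries. Shares of cells were compared after every cell had been thinned at random to 2094 UMIs, which left 1438 splenic and 1149 small intestinal cells. The libraries shared 0 cell barcodes. *Foxp3* was detected in 280 splenic cells (19.1%) and in 28 small intestinal cells (2.19%), and *Il10* in 64.9% and 72.5%. A cell without a *Foxp3* UMI may still be a Foxp3+ cell whose RNA was not captured: 39 of the 1188 splenic cells without a *Foxp3* UMI had a UMI of the mRFP reporter. The 4 T cell markers in the matrix were detected in both tissues, *Cd4* itself in 67.1% of splenic and 73.1% of small intestinal cells. In the spleen *Cd8a* and *Ms4a1* had 0 UMIs, while *Cd8b1* had 126 UMIs in 105 cells. In the small intestine 121 kept cells had UMIs of both *Cd8a* and *Cd8b1* although the sort was for CD4, and the B-cell gene *Ms4a1* had 2 UMIs. These 121 cells (median 4452 UMIs) serve below as a comparison. *Cd4* was detected in 40.5% of them and in 76.5% of the other small intestinal cells, so they may hold CD4+ cells too.

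The level of the 10 genes summed was higher in the spleen than in the small intestine. It was 1345 CPM (1321 to 1369) in the spleen against 525 CPM (505 to 545) in the small intestine, a log2 ratio of 1.36 (1.30 to 1.42). Under the other scalings and cell filters tried this ratio lay between 1.28 and 1.60. *Izumo1r* alone gave 5712 of the 12306 splenic UMIs, and without it the log2 ratio was 0.87 (0.80 to 0.95). At least 50 UMIs in the 2 tissues together were found for 9 of the 10 genes, and 4 of these 9, *Cxcr5*, *Il21*, *Slamf6* and *Izumo1r*, were at least 2-fold higher in the spleen, where 13.6% of 9032 genes were. *Bcl6* was the 1 gene at least 2-fold higher in the small intestine, where 10.4% of genes were. The median log2 ratio of the 9 genes was 0.69, beside 0.02 for all 9032 genes.

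The homing receptor *Cxcr5* showed the widest difference between the tissues. It had 607 UMIs in the spleen (66.3 CPM, 61.2 to 71.8) and 8 in the small intestine (1.59 CPM, 0.686 to 3.13), a log2 ratio of 5.38 (4.40 to 6.60) or 41.7-fold. The 8 small intestinal UMIs lay in 8 different cells, of which 6 belonged to the cluster led by *Il17a*. Whether the removal of Peyer's patches bears on the ratio of *Cxcr5* or of the other genes was not tested. *Il21* stood at 64.7 CPM (59.6 to 70.1) in the spleen against 14.7 CPM (11.5 to 18.5) in the small intestine, a log2 ratio of 2.14 (1.79 to 2.51). Of the 325 splenic cells with *Il21*, 206 had 1 UMI, 57 had 3 or more and 18 had 5 or more. *Sostdc1*, a secreted antagonist of BMP and Wnt signals, had 37 UMIs in 8 splenic cells and 1 UMI in 1 small intestinal cell, a log2 ratio of 4.35 with an interval of 1.78 to 9.69.

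The surface receptor *Slamf6* was at 129.8 CPM (122.5 to 137.4) in the spleen against 29.8 CPM (25.2 to 35.0) in the small intestine, a log2 ratio of 2.12 (1.88 to 2.38). Its adaptor *Sh2d1a* differed less, with 205 CPM (196 to 215) against 149 CPM (139 to 160.5) and a log2 ratio of 0.46 (0.33 to 0.58). The intervals of the ratios of receptor and adaptor did not overlap. *Izumo1r*, which encodes folate receptor 4, a surface protein of Tfh and Treg cells, was at 624 CPM (608 to 641) against 131 CPM (121 to 141), a log2 ratio of 2.25 (2.14 to 2.37).

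The nuclear factors did not share 1 direction. *Tox*, an HMG-box protein, had 123 CPM (116 to 131) in the spleen against 89.6 CPM (81.5 to 98.3) in the small intestine, and the log2 ratio was 0.46 (0.30 to 0.62). Its relative *Tox2* had 27.0 CPM (23.7 to 30.6) in the spleen against 37.8 CPM (32.6 to 43.5) in the small intestine, with a log2 ratio of -0.48 (-0.76 to -0.20). The log2 ratio of *Tox2* was -0.02 with pooled size factors and -0.10 without the cells with a *Foxp3* UMI, both with intervals that include 0. The size factors were pooled within each tissue, so they change the weight of cells and do not scale 1 tissue to the other. *Bcl6* was scarce in both tissues, with 20 UMIs in the spleen (2.19 CPM, 1.33 to 3.38) and 49 in the small intestine (9.74 CPM, 7.20 to 12.9), and its log2 ratio was -2.16 (-2.98 to -1.38). The cells with *Cd8a* and *Cd8b1* UMIs had 6 *Bcl6* UMIs or 9.27 CPM (3.40 to 20.2), an interval that includes the level of the whole small intestine. *Tbc1d4*, a Rab GTPase-activating protein that acts in the traffic of glucose transporters, had 98.1 CPM (91.8 to 105) against 60.8 CPM (54.2 to 68.0), and its log2 ratio was 0.69 (0.50 to 0.88).

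**Figure D1:**
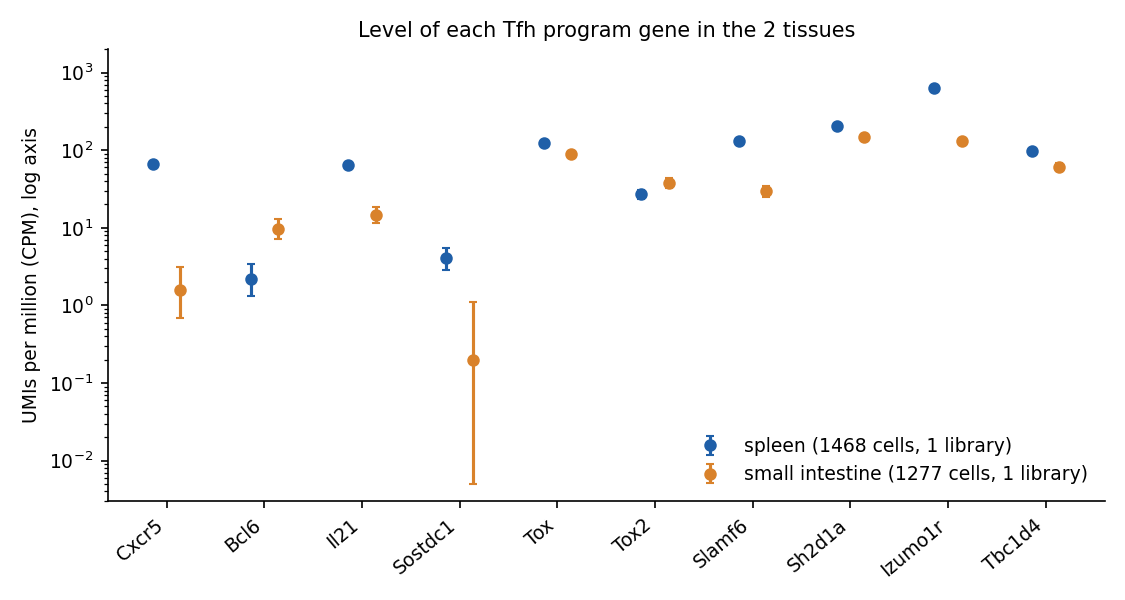
Level of each gene in CPM (log axis) in the kept cells of the spleen (blue) and the small intestine (orange), each 1 library; points are levels and bars exact Poisson 95% intervals, which are smaller than the point for the abundant genes. Among the genes with at least 50 UMIs, *Cxcr5*, *Il21*, *Slamf6* and *Izumo1r* lie at least 2-fold higher in the spleen, *Bcl6* in the small intestine. *Sostdc1*, with fewer UMIs, also lies higher in the spleen. Levels are to be compared between tissues, not between genes.

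For 3 genes the 250 bases before the transcript start are shown because *Il21* and *Slamf6* were at least 2-fold higher in the spleen, *Bcl6* in the small intestine. The sequences come from RefSeq (GRCm38.p6), whose promoter table matched 6 of the 10 genes, and are written 5′ to 3′ on the strand of the gene. They lie at chr3:37232637-37232886 (minus strand, *Il21*), chr1:171917212-171917461 (plus strand, *Slamf6*) and chr16:23988853-23989102 (minus strand, *Bcl6*), directly before the RefSeq transcript start. Capitals mark matches on either strand to the core motifs of NFAT (GGAAA), AP-1 (TGANTCA), STAT (TTCNNNGAA) and TCF/LEF (CTTTGA), with no overlap between matches.
Il21: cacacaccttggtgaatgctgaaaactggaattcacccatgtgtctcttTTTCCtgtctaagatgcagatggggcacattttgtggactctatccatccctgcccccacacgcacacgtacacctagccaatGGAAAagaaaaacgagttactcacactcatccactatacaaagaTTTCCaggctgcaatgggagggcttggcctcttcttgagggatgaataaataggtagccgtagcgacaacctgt
Slamf6: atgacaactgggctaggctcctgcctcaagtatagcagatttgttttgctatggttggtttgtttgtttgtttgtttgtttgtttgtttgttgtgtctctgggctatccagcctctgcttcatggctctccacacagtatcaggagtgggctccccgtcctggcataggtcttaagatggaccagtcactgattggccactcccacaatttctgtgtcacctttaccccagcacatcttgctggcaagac
Bcl6: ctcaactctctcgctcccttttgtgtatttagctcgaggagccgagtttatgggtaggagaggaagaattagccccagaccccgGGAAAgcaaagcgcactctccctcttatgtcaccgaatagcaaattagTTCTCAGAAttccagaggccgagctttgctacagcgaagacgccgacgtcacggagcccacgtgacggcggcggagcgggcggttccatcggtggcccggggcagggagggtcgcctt
The *Il21* window held 3 NFAT matches, the *Slamf6* window 0 matches to the 4 motifs and the *Bcl6* window 1 STAT match, 118 bases before the start, and 1 NFAT match. The table holds a second start for *Bcl6*, not shown, whose window had 3 STAT matches, 3 NFAT matches and 1 TCF/LEF match. Among all 32817 promoter windows of the same length 55.6% held the NFAT motif, 7.01% the STAT motif, 6.75% the AP-1 motif and 13.8% the TCF/LEF motif. A match describes letters and was not tested for binding.

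Positions are those of GENCODE vM21 (GRCm38, the assembly also called mm10). *Cxcr5* lies at chr9:44511787-44561877 and *Izumo1r* at chr9:14885814-14903949, *Il21* at chr3:37222759-37232636 and *Slamf6* at chr1:171917515-171953170. *Tox* lies at chr4:6686353-6991557, *Tox2* at chr2:163203125-163324170, *Bcl6* at chr16:23965052-23988852 and *Sostdc1* at chr12:36314139-36318452. *Tbc1d4* lies at chr14:101442360-101609191 and *Sh2d1a* at chrX:42502453-42529330. An exon of 6 of the 10 genes overlaps another annotated gene, for *Cxcr5* the gene *Bcl9l*, and how UMIs of such overlaps were assigned is not given in the sources used here.

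The shares of cells at equal depth had the same order between the tissues as the levels. *Izumo1r* was detected in 63.1% of splenic cells (60.5 to 65.6) and 19.9% of small intestinal cells (17.7 to 22.4). *Slamf6* was detected in 24.6% (22.4 to 26.9) and 5.57% (4.32 to 7.06), *Cxcr5* in 13.3% (11.6 to 15.1) and 0.261% (0.0539 to 0.761), and *Il21* in 10.8% (9.29 to 12.6) and 2.61% (1.77 to 3.71). The intervals of the 2 tissues did not overlap for these 4 genes, nor for *Sh2d1a* and *Tbc1d4*, given below. They were also apart for *Tox*, 20.1 to 24.4 in the spleen and 14.6 to 19.0 in the small intestine. For *Bcl6* they were apart in the other direction, 0.287 to 1.18 in the spleen and 1.34 to 3.09 in the small intestine. The share of all genes with intervals apart is not given. The shares of *Tox2*, 6.47% (5.25 to 7.86) and 6.88% (5.48 to 8.496), did overlap. *Sh2d1a* was detected in 33.9% (31.5 to 36.4) of splenic cells, beside 27.8% (25.2 to 30.5) in the small intestine, and *Tbc1d4* in 18.5% (16.5 to 20.6), beside 11.1% (9.30 to 13.0). With all UMIs as deposited the shares were larger, for *Izumo1r* 84.2% and 30.4%, for *Slamf6* 47.4% and 9.16%, for *Cxcr5* 27.9% and 0.626%, for *Il21* 22.1% and 4.07% and for *Tox2* 12.9% and 11.7%. For *Sh2d1a* they were 58.9% and 40.3%, and for *Tbc1d4* 33.5% and 18.0%. The thinning left out 30 splenic and 128 small intestinal cells as too shallow. In the 116 small intestinal cells with *Cd8a* and *Cd8b1* UMIs at equal depth, *Izumo1r* was detected in 6.03% (2.46 to 12.0), *Slamf6* and *Il21* in 0.862% each, *Tbc1d4* in 1.72%, *Sh2d1a* in 14.7% (8.78 to 22.4) and *Tox* in 23.3% (15.9 to 32.0). *Cxcr5* had a UMI in 0 of these 116 cells, and a count of 0 allows up to 2.59% of cells with a UMI at this depth (3 cells of the total). The small intestinal shares of *Izumo1r*, *Sh2d1a* and *Tbc1d4* lay above those in these cells. The shares of *Tox* (22.2% in the spleen, 16.7% in the small intestine) and *Bcl6* (0.626% and 2.09%, beside 2.59% in these cells) did not. CD8 T cells are known to express *Tox* and *Sh2d1a* too, so the comparison does not give a background level for these genes.

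Genes linked to the Tfh program, a list of 28 called partners below, were spread over both directions. The list does not separate genes that promote the program from genes that restrain it. Of the 27 with at least 50 UMIs, 12 were at least 2-fold higher in the spleen, 5 in the small intestine, with a median log2 ratio of 0.61. Of all 9032 genes 13.6% and 10.4% were, with a median of 0.02. The largest ratios to the spleen were those of *Il4* (4.55), a cytokine of germinal centre Tfh cells, *Il6ra* (4.47), the IL-6 receptor, *Pou2af1* (4.37), a transcriptional coactivator, and *Btla* (4.22), an inhibitory receptor. *Tcf7*, which encodes TCF-1, a factor acting upstream of *Bcl6*, had 132 CPM in the spleen against 9.34 CPM in the small intestine. Towards the small intestine the largest were *P2rx7* (-1.88), *Stat3* (-1.49), *Cd40lg* (-1.27) and *Il21r* (-1.18). *Cd40lg* encodes the ligand through which helper T cells activate B cells, and its direction was opposite to that of *Il21*.

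Genes that oppose the program or mark other fates, a list of 15, also lay on both sides, with 5 at least 2-fold higher in the spleen, 3 in the small intestine and a median log2 ratio of 0.13. The shares over all 9032 genes were 13.6% and 10.4%. The largest ratios to the spleen were *S1pr1* (3.73), *Klf2* (3.39), *Ccr7* (2.99) and *Il2ra* (2.72). The first 3 of these genes belong to recirculating and naive T cells. Towards the small intestine they were *Id2* (-2.24), an antagonist of E proteins, *Selplg* (-1.14) and *Foxo1* (-1.09). *Prdm1*, which encodes the BCL6 antagonist BLIMP-1, differed less than 2-fold, with 71.2 CPM in the spleen against 86.8 CPM in the small intestine.

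Graph clusters were made in each tissue without the 10 genes, *Il10*, *Foxp3* and the reporter genes among the genes used, and gave 7 splenic and 6 small intestinal clusters. The clusters are given by number and by their 3 leading genes, which may include the 10 genes. Other genes that vary with the 10 were used, so the cluster levels are a description. Splenic cluster 1 (*Tnfsf8*, *Tbc1d4*, *Fas*; 309 cells) had the highest level of the 10 genes summed, 2257 CPM (2179 to 2336), and cluster 4 (*Hist1h2ap*, *2810417H13Rik*, *Rrm2*; 209 cells) the lowest in the spleen, 779 CPM (741 to 818). Cluster 1 was first of the 13 clusters for *Cxcr5* (145 CPM), *Il21* (141 CPM), *Tox* (212 CPM), *Sh2d1a* (359.5 CPM) and *Tbc1d4* (263 CPM). It held 6 of the 8 splenic cells with *Sostdc1* and 10 of the 20 with *Bcl6*. In cluster 1 2.27% of cells had a *Foxp3* UMI, while 64.1% had an *Il10* UMI.

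Not every gene followed cluster 1. *Izumo1r* (1101 CPM) and *Slamf6* (279 CPM) were highest in splenic cluster 3 (*Pik3ip1*, *Ccr7*, *Txnip*; 227 cells), in which 22.5% of cells had an *Il10* UMI. In cluster 2 (*Tnfrsf9*, *Ccr8*, *Foxp3*; 251 cells), where 56.6% of cells had a *Foxp3* UMI, *Izumo1r* was at 856 CPM and *Cxcr5* at 63.6 CPM, but *Il21* at 17.7 CPM, *Tox2* at 11.2 CPM and *Tbc1d4* at 28.3 CPM. *Cxcr5* was thus close to the level of all splenic cells in this cluster and *Il21* below it. Cluster 7 (*Cnn3*, *Bach2*, *Atad3a*; 129 cells) was second for *Cxcr5* (86.7 CPM) and for *Il21* (104 CPM), close to cluster 5 (102 CPM), and last in the spleen for *Sh2d1a* (65.1 CPM). At equal depth *Il21* was detected in 20.5% of cluster 7 cells (13.8 to 28.5) and in 19.9% of cluster 1 cells (15.5 to 24.8). *Tox* in cluster 6 (*Ccl5*, *Ccl3*, *Ccl4*; 160 cells) was at 202 CPM (174 to 233), beside 212 CPM (189 to 238) in cluster 1. Its shares at equal depth were 30.5% and 29.8%.

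In the small intestine the 10 genes summed ranged from 314 CPM (273 to 359) in cluster 6 (*Cd8b1*, *Cd8a*, *Car2*; 131 cells) to 857 CPM (790.3 to 928) in cluster 5 (*Il17a*, *Tmem176b*, *Tmem176a*; 180 cells). Cluster 5 had the highest *Tox2* of all 13 clusters, 134 CPM, beside 74.6 CPM in splenic cluster 1, and the highest small intestinal *Izumo1r* (269 CPM) and *Slamf6* (82.0 CPM). It also held 22 of the 28 small intestinal cells with a *Foxp3* UMI. *Il21* was highest in cluster 3 (*Sv2c*, *Ramp3*, *Ttc39c*; 204 cells) with 33.0 CPM and stood at 9.90 CPM in cluster 5. *Tox* was highest in cluster 6, the cluster led by the CD8 genes, with 135 CPM.

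**Figure D2:**
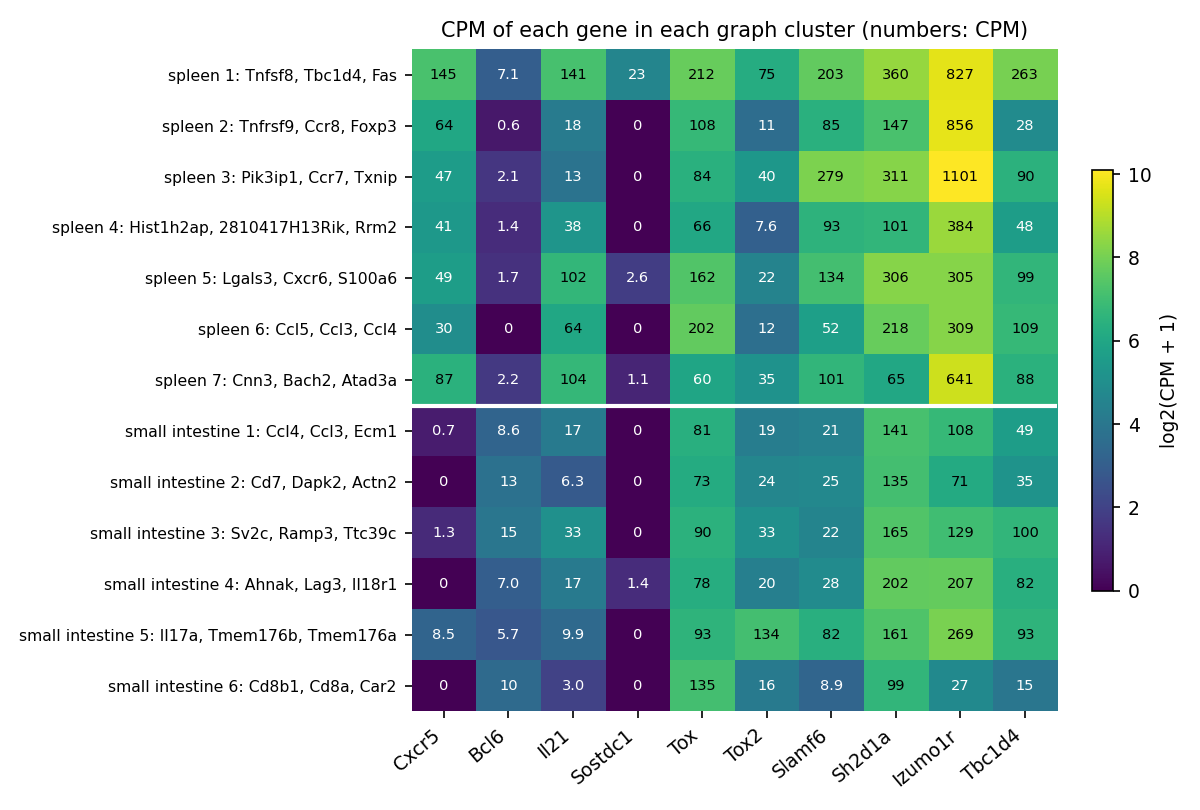
CPM of the 10 genes (columns) in the 7 splenic clusters (above the white line) and the 6 small intestinal clusters (below), each row named by its 3 leading genes; colour is log2(CPM + 1) and the numbers are CPM. Splenic cluster 1 holds the highest *Cxcr5*, *Il21*, *Sostdc1*, *Tox*, *Sh2d1a* and *Tbc1d4*, splenic cluster 3 the highest *Slamf6* and *Izumo1r*, and small intestinal cluster 5 the highest *Tox2*.

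Across the 13 clusters, the genes whose pattern was most like that of the summed 10 genes were *Shisa5* (Pearson r = 0.95), *Kbtbd11* (0.95), *Gpm6b* (0.94), *P4ha1* (0.94) and *Tspan32* (0.93), among 6079 genes. These correlations describe clusters that share 2 libraries and differ in depth. The gene most like *Slamf6* was *Il6ra* (0.97), and the gene most like *Cxcr5* was *Adk* (0.97). For *Tox* it was *Spp1* (0.91) and for *Il21* *Ptpn1* (0.93).

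Splenic cells with and without a *Foxp3* UMI were compared because Foxp3+ cells were part of the sort. The cells with a *Foxp3* UMI were deeper (median 7665.5 UMIs against 5047.5), so values with all cells at equal depth are given for the 10 genes and for the named genes of the lists. In these ratios the class, too, was taken from the thinned counts. Of the 277 cells with a *Foxp3* UMI that were deep enough, 116 kept one, and the rest then counted as cells without. The change from counts as deposited is therefore not one of depth alone. *Tbc1d4*, *Il21* and *Tox2* were at least 2-fold lower in cells with a *Foxp3* UMI, 3 of the 8 genes with at least 50 UMIs, where 2.53% of 8116 genes were. The other 5 were within 2-fold, and 0 were at least 2-fold higher, beside 1.45% of all genes. *Sostdc1*, under 50 UMIs, had 0 UMIs with and 37 without a *Foxp3* UMI.

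*Tbc1d4* had 29.3 CPM (22.7 to 37.1) in cells with a *Foxp3* UMI and 122 CPM (113 to 130) in cells without, a log2 ratio of -2.05 (-2.43 to -1.70), and at equal depth -2.13 (-3.45 to -1.07). *Il21* had 20.7 CPM (15.2 to 27.4) against 79.7 CPM (73.1 to 86.7), a log2 ratio of -1.95 (-2.40 to -1.52), and -3.37 (-6.42 to -1.497) at equal depth. Both genes had intervals below 0 on both scales. *Tox2* had 7.75 CPM (4.59 to 12.2) against 33.5 CPM (29.3 to 38.2), a log2 ratio of -2.11 (-2.89 to -1.42), which at equal depth was -0.35 with an interval of -1.71 to 0.74.

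*Izumo1r* was the 1 gene of the 8 with a higher level in cells with a *Foxp3* UMI, 689 CPM (655 to 723) against 602 CPM (584 to 621), with a log2 ratio of 0.19 (0.11 to 0.28) and of 0.66 (0.47 to 0.85) at equal depth. *Cxcr5* had 54.7 CPM (45.6 to 65.0) with and 70.3 CPM (64.2 to 76.9) without a *Foxp3* UMI, a log2 ratio of -0.36 (-0.66 to -0.08). With both gene and class from thinned counts the sign turned to 0.12 (-0.62 to 0.78). With its counts thinned but the class as deposited, *Cxcr5* was detected in 12.3% (8.65 to 16.7) with and 13.5% (11.6 to 15.6) without a *Foxp3* UMI. These intervals overlapped. No direction is read for the follicular receptor. *Tox* (-0.90), *Sh2d1a* (-0.98) and *Slamf6* (-0.64) were lower with a *Foxp3* UMI in counts as deposited, and at equal depth only the interval of *Tox* stayed below 0 (-0.66, -1.35 to -0.04). The sum of the 10 genes turned as well, from -0.40 (-0.46 to -0.33) to 0.078 (-0.072 to 0.23), with genes and class both thinned, so no direction is read from it. The numbers of genes per cell given below keep the class as deposited at equal depth, and they were lower in cells with a *Foxp3* UMI. Without *Izumo1r* the sum was at -1.06 (-1.16 to -0.95) in counts as deposited.

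Within splenic cluster 2, 142 cells with and 109 cells without a *Foxp3* UMI had nearly the same sum, 1294 and 1351 CPM, a log2 ratio of -0.062 (-0.18 to 0.061). The intervals of *Cxcr5*, *Il21*, *Tox2*, *Slamf6*, *Sh2d1a*, *Izumo1r* and *Tbc1d4* included 0 there, and that of *Tox* did not (-0.49, -0.93 to -0.06). In cluster 4, with 86 cells with and 123 without, *Il21* (-1.10, -1.86 to -0.38), *Tbc1d4* (-1.13, -1.79 to -0.49), *Sh2d1a* (-1.01, -1.45 to -0.58), *Tox* (-0.76, -1.30 to -0.24) and *Tox2* (-2.02, -4.47 to -0.15) were lower with a *Foxp3* UMI. Of the 55 *Il21* UMIs in the cluster 4 cells without a *Foxp3* UMI, 14 lay in 1 cell. The other clusters held few cells with a *Foxp3* UMI. The sum was higher with it in clusters 3 (0.68, 0.47 to 0.89) and 6 (0.88, 0.44 to 1.28), and lower in cluster 5 (-0.51, -0.81 to -0.22). In clusters 1 and 7 its interval included 0. *Izumo1r* was higher with it, intervals above 0, in clusters 1, 3, 5 and 6. Of the 29 splenic cells with both *Il21* and *Foxp3*, 14 lay in cluster 4 and 11 in cluster 2, and their median of 9452 UMIs was above that of all kept cells.

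Among the 25 partner genes with at least 50 UMIs in the spleen, 7 were at least 2-fold lower in cells with a *Foxp3* UMI and 0 higher, with a median log2 ratio of -0.49 beside 0.04 for all genes. Of all 8116 genes 2.53% were lower and 1.45% higher by this measure. *Il4* had 0 UMIs in the cells with a *Foxp3* UMI and 85 in the others. The next largest were *Tnfsf8* (-2.97), the CD30 ligand, *Tcf7* (-2.92) and *Cd40lg* (-2.03). At equal depth these were -2.87 (-3.88 to -2.02), -2.47 (-3.69 to -1.48) and -0.60 (-2.93 to 1.02). Of the 15 opposing genes, *Il2ra*, a component of the IL-2 receptor and a Treg gene, was higher (1.28), and *S1pr1* (-1.57), *Klf2* (-1.47), *Bach2* (-1.43) and *Ccr7* (-1.32) were lower. At equal depth *Il2ra* (0.93, 0.51 to 1.33), *S1pr1* (-1.64, -3.10 to -0.49) and *Klf2* (-1.11, -1.60 to -0.65) kept intervals on the same side of 0, and those of *Bach2* (-2.24, -7.57 to 0.30) and *Ccr7* (-0.11, -0.81 to 0.52) included 0.

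In the small intestine the 28 cells with a *Foxp3* UMI are few and are given as values. *Tox2* had 15 UMIs in them or 100.4 CPM (56.2 to 166), against 35.8 CPM (30.7 to 41.6) in the other 1249 cells. *Izumo1r* had 301 CPM (219.8 to 403) against 126 CPM (116 to 136), and *Slamf6* 67.0 CPM (32.1 to 123) against 28.7 CPM (24.1 to 33.8). These 3 of the 7 genes with at least 50 UMIs were at least 2-fold higher in the cells with a *Foxp3* UMI, where 8.05% of 6870 genes were. *Tbc1d4* (3 UMIs, log2 ratio -1.63, -3.91 to -0.066) and *Il21* (1 UMI, -1.16, -6.48 to 1.36) were at least 2-fold lower, where 13.2% of genes were, and the median of the 7 was -0.043. Of the 28 cells, 22 came from cluster 5, in which *Tox2*, *Izumo1r* and *Slamf6* were highest in that tissue. Within cluster 5 the summed genes had a log2 ratio of -0.39 (-0.76 to -0.04). *Cxcr5* had 0 UMIs in the 28 cells, and 3 UMIs of these cells would be 20.1 CPM.

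**Figure D3:**
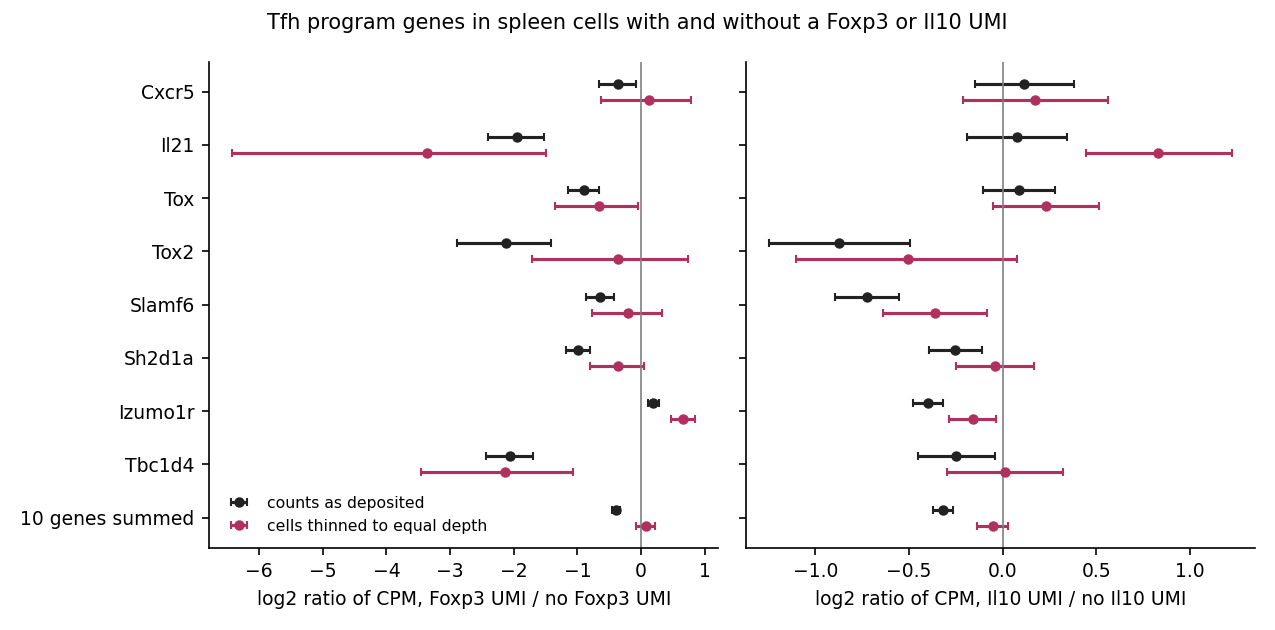
Log2 ratio of CPM between splenic cells with and without a *Foxp3* UMI (left) or an *Il10* UMI (right), for 8 genes and the 10 genes summed; black points are counts as deposited, red points have cells, class and genes from counts thinned to 2094 UMIs, and bars are exact binomial 95% intervals. *Il21* and *Tbc1d4* lie below 0 on the left on both scales, while the sum crosses from -0.40 to 0.078; the 2 panels have different scales.

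The cells were sorted on the IL-10 reporter, and *Il10* UMIs separate cells with more and less of the transcript, not producers from non-producers. The eGFP transcript itself had 7 splenic and 6 small intestinal UMIs. In the spleen, 952 cells with an *Il10* UMI (median 6066.5 UMIs) had 1256 CPM (1229 to 1284) of the 10 genes summed, and 516 cells without (median 4460 UMIs) had 1568 CPM (1519.8 to 1616), a log2 ratio of -0.32 (-0.37 to -0.26). At equal depth the class, too, came from the thinned counts, and 663 of 939 cells with an *Il10* UMI kept one. The ratio was then -0.053 (-0.14 to 0.030). In counts as deposited without cells with a *Foxp3* UMI it was -0.20 (-0.26 to -0.14). Within single splenic clusters the ratio ranged from -0.57 (-0.75 to -0.39) in cluster 4 to 0.27 (0.11 to 0.42) in cluster 3. No gene of the 8 was past 2-fold, where 1.93% of genes were higher and 1.02% lower. In the small intestine the sum did not separate the classes, with 533 CPM (509.7 to 556) and 499 CPM (460.3 to 541) and a log2 ratio of 0.09 (-0.04 to 0.23).

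Over all splenic cells *Slamf6* and *Izumo1r* were lower with an *Il10* UMI on both scales. *Slamf6* had a log2 ratio of -0.73 (-0.90 to -0.56) in counts as deposited and -0.36 (-0.64 to -0.08) at equal depth. *Izumo1r* had -0.40 (-0.48 to -0.32) and -0.16 (-0.28 to -0.04). Within clusters *Izumo1r* had no single direction in counts as deposited. Its log2 ratio was above 0 in clusters 3 (0.26, 0.06 to 0.47), 5 (0.65, 0.13 to 1.21) and 7 (0.25, 0.01 to 0.49), and below 0 in clusters 2 (-0.35, -0.56 to -0.14) and 4 (-0.28, -0.56 to -0.00095). *Tox2* had -0.87 (-1.25 to -0.49) over all splenic cells and -0.50 (-1.10 to 0.08) at equal depth. *Il21* had 0.08 (-0.19 to 0.35) as deposited and 0.83 (0.44 to 1.22) at equal depth, and *Cxcr5* 0.11 (-0.15 to 0.38) and 0.18 (-0.21 to 0.56). The interval of *Il21* lay above 0 at equal depth, and that of *Cxcr5* included 0 on both scales. In the small intestine *Il21* had a log2 ratio of 1.01 (0.03 to 2.13), the 1 gene of 7 past 2-fold higher beside 0.903% of 6869 genes, and 0.97 (-0.11 to 2.18) at equal depth. *Slamf6* had 0.04 (-0.51 to 0.63) there, and -0.87 (-1.54 to -0.21) at equal depth.

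Of the 25 partner genes, 2 were at least 2-fold higher in splenic cells with an *Il10* UMI, *Il4* (2.39) and *Rgs16* (1.79), a regulator of G protein signalling. The 4 lower ones were *Tcf7* (-1.57), *Pou2af1* (-1.41), *Lef1* (-1.15), a relative of *Tcf7*, and *Il6ra* (-1.11). Of all 8116 genes 1.93% were higher and 1.02% lower by this measure. Of the 15 opposing genes *Prdm1* (1.51) and *Il2ra* (1.11) were higher, and *Ccr7* (-2.30), *Bach2* (-1.55), *S1pr1* (-1.04) and *Klf2* (-1.03) were lower. The median log2 ratio was 0.18 for the partners and -0.17 for the opposing genes, beside 0.10 for all genes. These values are counts as deposited. At equal depth *Il4* (2.16, 0.83 to 3.75), *Rgs16* (1.11, 0.26 to 1.99), *Tcf7* (-0.73, -1.01 to -0.46), *Lef1* (-1.43, -1.88 to -0.999) and *Il6ra* (-0.62, -1.13 to -0.13) kept their side of 0, and the interval of *Pou2af1* (-0.90, -2.08 to 0.18) included 0. Of the opposing genes *Prdm1* (0.99), *Il2ra* (0.73), *Ccr7* (-1.85), *Bach2* (-1.06), *S1pr1* (-0.83) and *Klf2* (-0.53) kept their side of 0 with their intervals.

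Detection of *Il21* and *Il10* in the same cell was taken from the same thinned counts as the ratio at equal depth, so it is not separate support. In counts as deposited *Il21* was detected in 24.1% (21.4 to 26.9) of splenic cells with an *Il10* UMI. Among those without it was 18.6% (15.3 to 22.2), and these intervals overlapped. At equal depth 58.3% of the 156 splenic cells with *Il21* had *Il10* (50.2 to 66.2), against 44.6% of the cells without *Il21* (41.9 to 47.4). Among cells without a *Foxp3* UMI the shares were 57.8% (49.4 to 65.9) and 40.9% (37.9 to 44.0). The first share was the higher in each of the 5 splenic clusters with enough cells, with ratios of 1.12 to 1.58. The levels as deposited did not share this direction in cluster 4, where *Il21* had 29.8 CPM with and 87.3 CPM without an *Il10* UMI, a log2 ratio of -1.55 (-2.26 to -0.80). Of the 25 *Il21* UMIs in the 41 cells without an *Il10* UMI there, 14 lay in 1 cell, so that ratio rests largely on 1 cell. For *Slamf6* the order was the other way, 38.7% (33.6 to 44.0) against 48.5% (45.5 to 51.5), with a ratio under 1 in 6 of 7 clusters. For *Izumo1r* the ratio was above 1 in 5 of 7 clusters, with a median of 1.11. *Cxcr5* cells had *Il10* in 48.7% (41.4 to 56.0) against 45.7% (42.9 to 48.5), and these intervals overlapped.

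Detection of the genes in the same cell was more frequent than their shares give for most pairs, by small factors. Of the 45 pairs, 29 had at least 5 cells expected together in the spleen at equal depth, and in 24 of them the second gene was more frequent in cells with the first than in cells without it. The median ratio of the 2 shares was 1.18, with a range of 0.77 to 1.72, and the intervals of the shares did not overlap for 6 pairs. Among splenic cells without a *Foxp3* UMI 23 of 29 pairs were higher, with a median ratio of 1.15, but only 1 pair had intervals apart. Among those with a *Foxp3* UMI 8 of 13 pairs were higher, with a median ratio of 1.11 and 1 pair with intervals apart. In the small intestine 12 of 18 pairs were higher, with a median ratio of 1.23 and 1 pair with intervals apart. Within splenic cluster 1 the median ratio was 1.05 and 17 of 28 pairs were higher, and within cluster 3 it was 0.99. Over the splenic clusters the median ratio ran from 0.94 in cluster 4 to 1.12 in cluster 2. No background from pairs of other genes is given, so these counts are not read as particular to the 10 genes.

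*Tbc1d4* had ratios above 1 with each of the 7 genes with enough splenic cells. In the spleen 29.5% of cells with *Il21* had *Tbc1d4* (22.5 to 37.3), against 17.2% of those without (15.1 to 19.3), a ratio of 1.72. It was 24.6% (20.2 to 29.4) against 16.5% (14.3 to 18.9) for *Slamf6* and 24.1% (19.5 to 29.2) against 16.9% (14.7 to 19.2) for *Tox*. These shares are over all splenic cells, with and without a *Foxp3* UMI. *Tbc1d4*, *Il21*, *Slamf6* and *Tox* were each lower in cells with a *Foxp3* UMI in counts as deposited. Among splenic cells without a *Foxp3* UMI only 1 of the 29 pairs had intervals apart, *Slamf6* and *Tbc1d4*. There 27.9% (22.9 to 33.3) of cells with *Slamf6* had *Tbc1d4*, against 19.8% (17.2 to 22.6) without. The ratios of *Tbc1d4* with the 7 genes were 1.20 to 1.41 in these cells, with overlapping intervals for the genes other than *Slamf6*. The small intestinal pair with intervals apart was *Slamf6* and *Tbc1d4*, with 28.1% (17.6 to 40.8) against 10.0% (8.32 to 12.0). *Cxcr5* and *Il21*, the follicular receptor and the cytokine, met about as often as their shares give: 22 splenic cells had both where 20.7 were expected. The ratio of the shares was 1.07, and within cluster 1 it was 0.65 with 10 cells. In counts as deposited 100 splenic cells (6.81%) had both, and 0 of 1277 small intestinal cells, where a count of 0 allows up to 0.235% of cells with UMIs of both. With *Cxcr5* in 8 and *Il21* in 52 small intestinal cells, this 0 is not read as an absence.

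**Figure D4:**
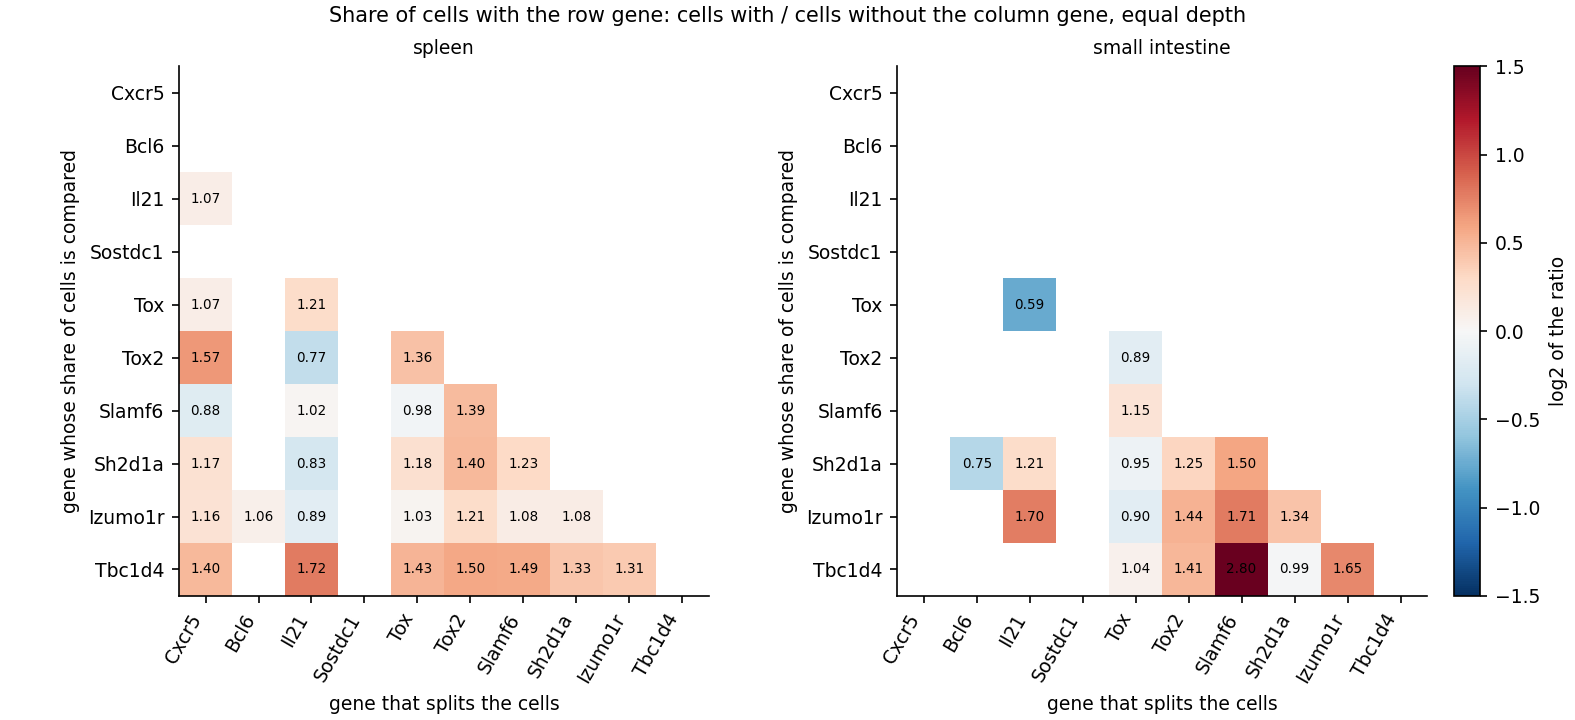
Ratio (numbers; colour is its log2) of the share of cells with the row gene among cells with the column gene to that among cells without it, at 2094 UMIs per cell, in the spleen (left) and the small intestine (right); red is above and blue below 1, and pairs with under 5 cells expected together are left blank. The row of *Tbc1d4* is above 1 throughout in the spleen (1.31 to 1.72), and the pair of *Slamf6* and *Tbc1d4* reaches 2.80 in the small intestine.

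Splenic cells held UMIs of more than 1 of the genes more often than small intestinal cells did. At equal depth 59.8% of splenic cells (57.2 to 62.4) and 23.2% of small intestinal cells (20.8 to 25.8) had 2 or more, and 11.7% (10.1 to 13.5) and 1.22% had 4 or more. Without *Izumo1r* the shares with 2 or more were 37.5% and 15.6%. With all UMIs as deposited they were 90.8% and 43.4%. In splenic cluster 1, 30.5% of cells had 4 or more, and the highest number in 1 cell was 7. Splenic cells with a *Foxp3* UMI had 2 or more in 48.4% (42.4 to 54.4) and those without in 62.5% (59.7 to 65.3). The small intestinal cells with *Cd8a* and *Cd8b1* UMIs reached 2 or more in 10.3% (5.46 to 17.4).

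**Figure D5:**
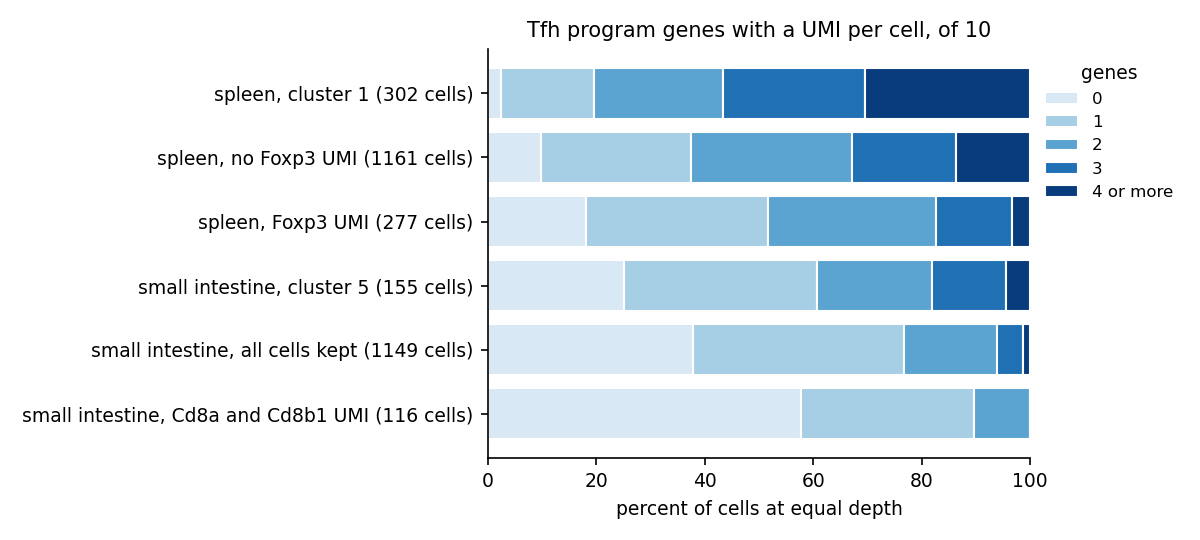
Percent of cells with 0, 1, 2, 3 or 4 and more of the 10 genes at 2094 UMIs per cell, for 6 groups of cells of the 2 libraries; the bar segments add to 100%. The segment of 4 or more is 30.5% in splenic cluster 1, 13.7% in splenic cells without and 3.25% in those with a *Foxp3* UMI, and 0% in the small intestinal cells with *Cd8a* and *Cd8b1* UMIs.

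*Cxcr5* and *Foxp3* met in 88 splenic cells (5.99%, 4.84 to 7.33), of which 43 lay in cluster 2 and 29 in cluster 4, and 77 of the 88 also had *Il10*. A further 322 splenic cells had *Cxcr5* without *Foxp3*, and 122 of these lay in cluster 1, beside 4 of the 88. The median depths of the 2 sets were 8245 and 5335.5 UMIs. At equal depth 18 cells had both genes where 15.4 were expected. For *Il21* and *Foxp3* 2 cells had both where 12.6 were expected, for *Tbc1d4* and *Foxp3* 5 where 21.5 were expected, and for *Izumo1r* and *Foxp3* 85 where 73.2 were expected. No small intestinal cell had *Cxcr5* and *Foxp3* together. With *Cxcr5* in 8 and *Foxp3* in 28 of the 1277 cells, this is not read as an absence.

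The 8 splenic *Sostdc1* cells can be described each. They had 1, 3, 3, 6, 3, 11, 5 and 5 *Sostdc1* UMIs, so that 7 of 8 had 3 or more. All 8 had *Tbc1d4*, and *Tox*, *Slamf6*, *Sh2d1a* and *Izumo1r* were each found in 7. *Cxcr5* was found in 4, *Il21* in 3, and *Bcl6* and *Foxp3* in 0. Over all splenic cells as deposited, *Izumo1r* and *Sh2d1a* were found in most cells. *Tox* was found in 42.8% of them, *Slamf6* in 47.4%, *Cxcr5* in 27.9%, *Il21* in 22.1% and *Bcl6* in 1.36%, and the share of *Tbc1d4* is given above. Of the 8 cells, 6 lay in cluster 1. Each of the 20 splenic *Bcl6* UMIs lay in a cell of its own. UMIs of the B-cell genes *Cd79a*, *Cd79b* and *Ms4a1* beside *Cxcr5* were few: the 410 splenic cells with a *Cxcr5* UMI had 5 *Cd79a* UMIs in 1 cell and 12 *Cd79b* UMIs, and 0 of *Ms4a1*.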

How the data were processed

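The authors sorted the cells, made 1 10x Chromium library per tissue, and deposited raw UMI counts per gene and barcode. Per the labels the reads were processed with Cell Ranger against mm10, and Trimmomatic is also named; versions are not given in the sources used here. After the study's methods, barcodes over 3 median absolute deviations below the median in log UMIs or genes, or above it in mitochondrial share, were removed, then cells called G2/M by cyclone (scran 1.30.0, R 4.3.3). The study words the limit as below the median for each parameter. The numbers of cells kept here are not those the study analysed. Clusters came from a shared-neighbour graph (10 neighbours, 20 principal components). Total counts were 11103530 UMIs in the spleen against 5693395 in the small intestine. Scrublet (scanpy 1.11.5) called 4 doublets in each library, under 0.5% of barcodes, and none was removed. Levels were summed counts per 1000000 UMIs (CPM), compared for genes with at least 50 UMIs, past 2-fold. Random thinning used 2094 UMIs per cell, the 10th percentile. Pairs needed 5 cells expected together. The most similar genes were ranked by Pearson correlation of log2(CPM + 10) over clusters. Named genes were the 10 genes, the partner and opposing lists and the markers. The genes and lists were chosen with earlier results of these data known. The scripts were tested on simulated data. Some marker and similarity results are not reported here.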

Additional observations from a re-analysis of the deposited data

Results flagged for a closer look

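Under the comparison of cells with and without a *Foxp3* UMI, *Tox2*, *Slamf6* and the 10 genes summed lay on opposite sides in the 2 tissues in counts as deposited. The log2 ratio of *Tox2* was -2.11 in the spleen against 1.49 in the small intestine, that of *Slamf6* was -0.64 and 1.22, and that of the sum was -0.40 and 0.48. At equal depth the splenic intervals of *Tox2*, *Slamf6* and the sum did not stay below 0. Within small intestinal cluster 5 the ratios were -0.27 (-1.24 to 0.58), -0.26 (-1.54 to 0.83) and -0.39 (-0.76 to -0.04), on the splenic side. The difference between the tissues was not tested, since each tissue is 1 library, and the small intestinal class holds 28 cells, 22 of them in 1 cluster.

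The barcodes left out by the filters on quality and cell cycle, which enter no comparison above, also held the genes. Their sum was 1129 CPM (1082 to 1177) in 270 splenic barcodes, where 3 UMIs would be 1.54 CPM, and 429.5 CPM (381 to 483) in 197 small intestinal barcodes, where 3 UMIs would be 4.54 CPM.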

How the results depend on the processing

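No paired analysis was possible because each tissue is 1 library and no result comes from a test. Of 101 alternative values of the 10 main results, 82 stayed within the interval or count limits of the reported value, and of 366 for single genes 288 did. The counts of 4 genes at least 2-fold higher in the spleen and of 1 lower were among these under the cell filters and scalings. The tissue ratio of the sum (1.36) was 1.28 without cells with a *Cd8a* or *Cd8b1* UMI and 1.51 without mitochondrial and ribosomal protein genes. It was 1.60 with size factors pooled within each tissue and 1.47 without cells with a *Foxp3* UMI. Without *Izumo1r*, an alternative chosen after seeing the data, it was 0.87. The shares with 2 or more genes (59.8% and 23.2%) were 68.1% and 30.3% at 2886 UMIs, 90.8% and 43.4% not thinned and 37.5% and 15.6% without *Izumo1r*, and the splenic share was 62.5% without cells with a *Foxp3* UMI. For ratios by *Foxp3* or *Il10*, equal depth here means that genes and class both came from thinned counts. The splenic *Foxp3* ratio of the sum (-0.40) was 0.078 at equal depth and -1.06 without *Izumo1r*. With cells that had a *Foxp3* or an mRFP UMI as the class, also chosen after seeing the data, it was -0.40. The splenic *Il10* ratio (-0.32) was -0.45 without mitochondrial and ribosomal protein genes, -0.20 without cells with a *Foxp3* UMI, -0.053 at equal depth and -0.25 without *Izumo1r*. Small intestinal pairs were 7 of 12 without *Izumo1r*, against 12 of 18. The sign also turned for *Tbc1d4* by *Il10* in the spleen, from -0.25 to 0.070 without cells with a *Foxp3* UMI and 0.014 at equal depth, and for *Cxcr5* by *Foxp3*, from -0.36 to 0.12 at equal depth. Among the list genes at equal depth, tried after seeing the data, it turned by *Foxp3* for *Prdm1* (-0.074), *Foxp1* (0.018) and *Tbx21* (-0.42), and by *Il10* for *Cd40lg* (0.28) and *Tnfsf8* (0.026), each with an interval that includes 0. The cause was not tested. With 1 library per tissue, differences between mice, sorts and libraries cannot be told apart from those between tissues.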
